A study of Mus musculus with 18 samples.

Results

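Cytochrome c oxidase, complex IV of the mitochondrial respiratory chain, passes electrons from cytochrome c to oxygen. Its catalytic core is encoded by mitochondrial DNA, and nuclear genes supply the smaller subunits that surround it. Several of these subunits come in a pair of isoforms from separate genes. In adult heart and skeletal muscle, the forms made by Cox6a2, Cox7a1 and Cox8b are known to replace the ubiquitous forms made by Cox6a1, Cox7a2 and Cox8a, while Cox4i2, known as a lung and low-oxygen form, is the partner of Cox4i1. The 8 genes were taken by symbol from the table of raw counts and make up 4 pairs among 55450 gene identifiers. The values below come from 18 libraries, and 7 of the 8 genes passed the filter on low counts that left 17912 genes for testing. Cox4i2 did not pass.

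The cells were C2C12, mouse muscle precursors that stop dividing and fuse to multinucleate myotubes in low serum, with polyA RNA taken from dividing myoblasts and from myotubes at day 3 of differentiation. The control was a sorted population that had received the pX458 vector, which carries Cas9 and EGFP, with no guide. The other lines, 2-4 and 2-7, were grown from single sorted cells after a pair of guides against the proximal promoter of Meg3, the first noncoding RNA gene of the Dlk1-Dio3 imprinted cluster, and their genotypes are labelled Dlk1-Dio3 overexpressor and Dlk1-Dio3 knockout. Each genotype has 3 myoblast and 3 myotube libraries, lettered A to C. Each edited line is 1 clone, so the deletion and the clone cannot be told apart, and p-values measure the spread between libraries that are not stated to be separate cultures. Counts of Meg3 were 5222 to 7763 per overexpressor library and 0 in each control and knockout library, so Meg3 does not tell the line labelled knockout from the control.

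Library totals ran from 41544358 to 79140702 counts, and a count of 3 equals 0.0375 to 0.0693 CPM, the count scaled by library total and TMM factor. The summed level of 8 myotube markers, such as Myog and Acta1, was 284 to 444 CPM in control myoblasts, 539 to 893 CPM in overexpressor myoblasts, 11315 to 14411 CPM in knockout myoblasts and 17390 to 17982 CPM in control myotubes. It reached 29479 to 32572 CPM in overexpressor myotubes and 38570 to 46352 CPM in knockout myotubes. Knockout myoblasts therefore carried myotube transcripts before differentiation was induced, while their 6 proliferation markers summed to 863 to 928 CPM against 1023 to 1065 CPM in control myoblasts. In bulk RNA a larger share of differentiated cells and more RNA per cell cannot be told apart. Summed levels of 10 markers of other cell types stayed between 1.36 and 2.62 CPM. Overexpressor myotube replicate C differed most from its fellow replicates, with a chi-square of 110 to 115 per degree of freedom over genes against 4.55 to 52.8 for all other replicate pairs, and the member calls that it ends or moves by over 1.5 times are also given without it.

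The 8 genes lie at separate places in the mouse genome (GRCm38, GENCODE M21). Cox6a2 is at chr7:128205435-128206387 (minus strand), Cox7a1 at chr7:30184144-30186078 (plus) and Cox8b at chr7:140898945-140900446 (minus), so the muscle forms are all on chromosome 7. Among the ubiquitous forms, Cox6a1 is at chr5:115345642-115348981 (minus), Cox7a2 at chr9:79755361-79759878 (minus), Cox8a at chr19:7215153-7217616 (minus) and Cox4i1 at chr8:120668222-120674207 (plus). Cox4i2 is at chr2:152754173-152765037 (plus). Coding sequences of partners shared 66.6% to 70.3% of aligned bases, with no identical run longer than 14 bases. Only Cox6a1 had a transcript of at least 90% identity over at least 50% of its length elsewhere, the processed pseudogene AC148174.2 at 65 to 132 counts. Whether the counting used strand is not given in the sources used here, and 9.94% of the exon bases of Cox4i1 lie over Emc8 (2272 to 3195 counts) on the other strand.

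The promoters of both kinds of form differ in sequence, and windows from 250 bases before to 50 bases after the start were found for 5 of the 8 genes in RefSeq (GRCm38.p6). Those of Cox8b (chr7:140900397-140900696, minus strand) and Cox7a1 (chr7:30183921-30184220, plus) are shown for the muscle forms, and their partners Cox8a (chr19:7217567-7217866, minus) and Cox7a2 (chr9:79759804-79760103, minus) for comparison. Capitals mark the E-box CANNTG, the core to which myogenic bHLH factors bind, in the muscle forms and the ETS core CCGGAA in the ubiquitous forms, on either strand.
Cox8b: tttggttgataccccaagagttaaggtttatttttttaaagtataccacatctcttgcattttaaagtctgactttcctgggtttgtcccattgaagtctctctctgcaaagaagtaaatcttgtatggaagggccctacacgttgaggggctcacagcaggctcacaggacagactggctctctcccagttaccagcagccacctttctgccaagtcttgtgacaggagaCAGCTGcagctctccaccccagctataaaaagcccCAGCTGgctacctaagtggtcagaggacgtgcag
Cox7a1: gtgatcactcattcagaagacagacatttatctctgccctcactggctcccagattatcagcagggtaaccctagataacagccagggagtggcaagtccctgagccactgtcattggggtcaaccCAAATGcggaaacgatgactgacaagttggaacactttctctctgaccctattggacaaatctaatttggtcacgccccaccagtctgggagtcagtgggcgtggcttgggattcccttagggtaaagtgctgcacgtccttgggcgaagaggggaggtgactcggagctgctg
Cox8a: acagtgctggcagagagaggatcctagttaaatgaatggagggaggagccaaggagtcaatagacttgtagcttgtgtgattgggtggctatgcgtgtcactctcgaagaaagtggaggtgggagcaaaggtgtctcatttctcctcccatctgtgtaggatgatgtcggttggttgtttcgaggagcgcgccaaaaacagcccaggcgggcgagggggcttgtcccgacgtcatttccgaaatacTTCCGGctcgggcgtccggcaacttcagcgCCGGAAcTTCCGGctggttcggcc
Cox7a2: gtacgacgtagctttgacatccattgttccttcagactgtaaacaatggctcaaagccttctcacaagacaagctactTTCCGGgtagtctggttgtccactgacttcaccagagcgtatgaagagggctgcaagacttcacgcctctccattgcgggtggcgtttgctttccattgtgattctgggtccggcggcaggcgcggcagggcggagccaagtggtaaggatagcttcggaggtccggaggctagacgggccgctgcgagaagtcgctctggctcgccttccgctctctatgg

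Counting the start base as 1, Cox8b held CAGCTG, the E-box form favoured by MyoD and myogenin, at -19 and 17, and a TATAAA at 5. CAGCTG was in 16.3% and TATAAA in 13.6% of 32851 promoter windows. Cox7a1 held 1 E-box, at -124, and no CAGCTG; any E-box is a common match, in 72.3% of windows, and Cox7a2 and Cox8a held 1 each as well, at -35 and -102, left in lower case. The ETS core was found 3 times in Cox8a, at -4, 27 and 34, and once in Cox7a2, at -172, and in Cox6a1, at -15, but in neither muscle form. It was in 14.9% of all windows. None of the 5 windows matched the MEF2 consensus (3.19% of windows), and Cox6a1 alone held the NRF1 core GCATGCGC (2.71%), as a pair of overlapping matches on both strands. The CpG count separated the 5 windows: 32 in Cox6a1, 20 in Cox7a2 and 19 in Cox8a against 7 in Cox7a1 and 2 in Cox8b, with a median of 7 over all windows. These matches are letters in a window and were not tied to any measurement of binding.

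The first comparison was between myoblasts and myotubes of the control line. All 3 muscle forms rose, Cox6a2 by far the most. Of the 4 ubiquitous forms Cox4i1 rose, Cox8a fell, and Cox6a1 and Cox7a2 did not pass the test. Over all genes, 33.9% of genes tested were called higher and 28.8% lower at an adjusted p under 0.05 (edgeR quasi-likelihood test, Benjamini-Hochberg over all genes), and of the 7 members 4 were higher and 1 lower.

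Cox6a2, the heart and skeletal muscle form of subunit 6a, had 0.17, 0.40 and 0.16 CPM in the control myoblast libraries and 153, 143 and 147 CPM in the control myotubes. That is 7 to 21 counts per library before and 6248 to 8124 after, a log2 change of 9.22 ± 0.26 (SE) with an adjusted p of 2.51e-14. Cox8b rose from 1 to 10 counts per library (0.02 to 0.19 CPM) to 10.2, 10.9 and 8.66 CPM, a log2 change of 6.35 ± 0.35 (adjusted p = 6.61e-11). Cox7a1, the muscle form of subunit 7a, rose from 0.34, 0.38 and 0.62 CPM to 1.69, 2.04 and 1.62 CPM, a log2 change of 2.00 ± 0.33 (adjusted p = 3.96e-05). For each of these genes every myotube library was above every myoblast library. Cox7a1 had 89 to 90 counts per library at day 3, so its values rest on fewer reads than those of the other muscle forms.

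Of the ubiquitous forms, Cox4i1 rose from 270 ± 8.6 to 412 ± 24 CPM (SD, n = 3), a log2 change of 0.61 ± 0.09 (adjusted p = 1.98e-05). Cox8a fell from 173 to 135 CPM, a log2 change of -0.36 ± 0.08 (adjusted p = 0.00117). Cox6a1 went from 186 to 171 CPM (adjusted p = 0.295) and Cox7a2 from 118 to 108 CPM (adjusted p = 0.25), and neither passed the test. With library totals in place of TMM, which moved the median of all genes in this contrast from 0.07 to -0.17, both were called lower (-0.36 and -0.37, adjusted p = 0.00226 and 0.0018), Cox8a was at -0.60 and Cox4i1 at 0.36. Cox6a1 was also called lower with only these groups fitted (-0.19, adjusted p = 0.00957), and Cox7a2 without control myotube replicate B (-0.23, adjusted p = 0.0355). The ubiquitous forms thus stayed present in myotubes beside the induced muscle forms. Cox4i2 was at 0 to 9 counts in every one of the 18 libraries, so the pair of Cox4 genes was Cox4i1 almost alone in both stages.

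**Figure D1:**
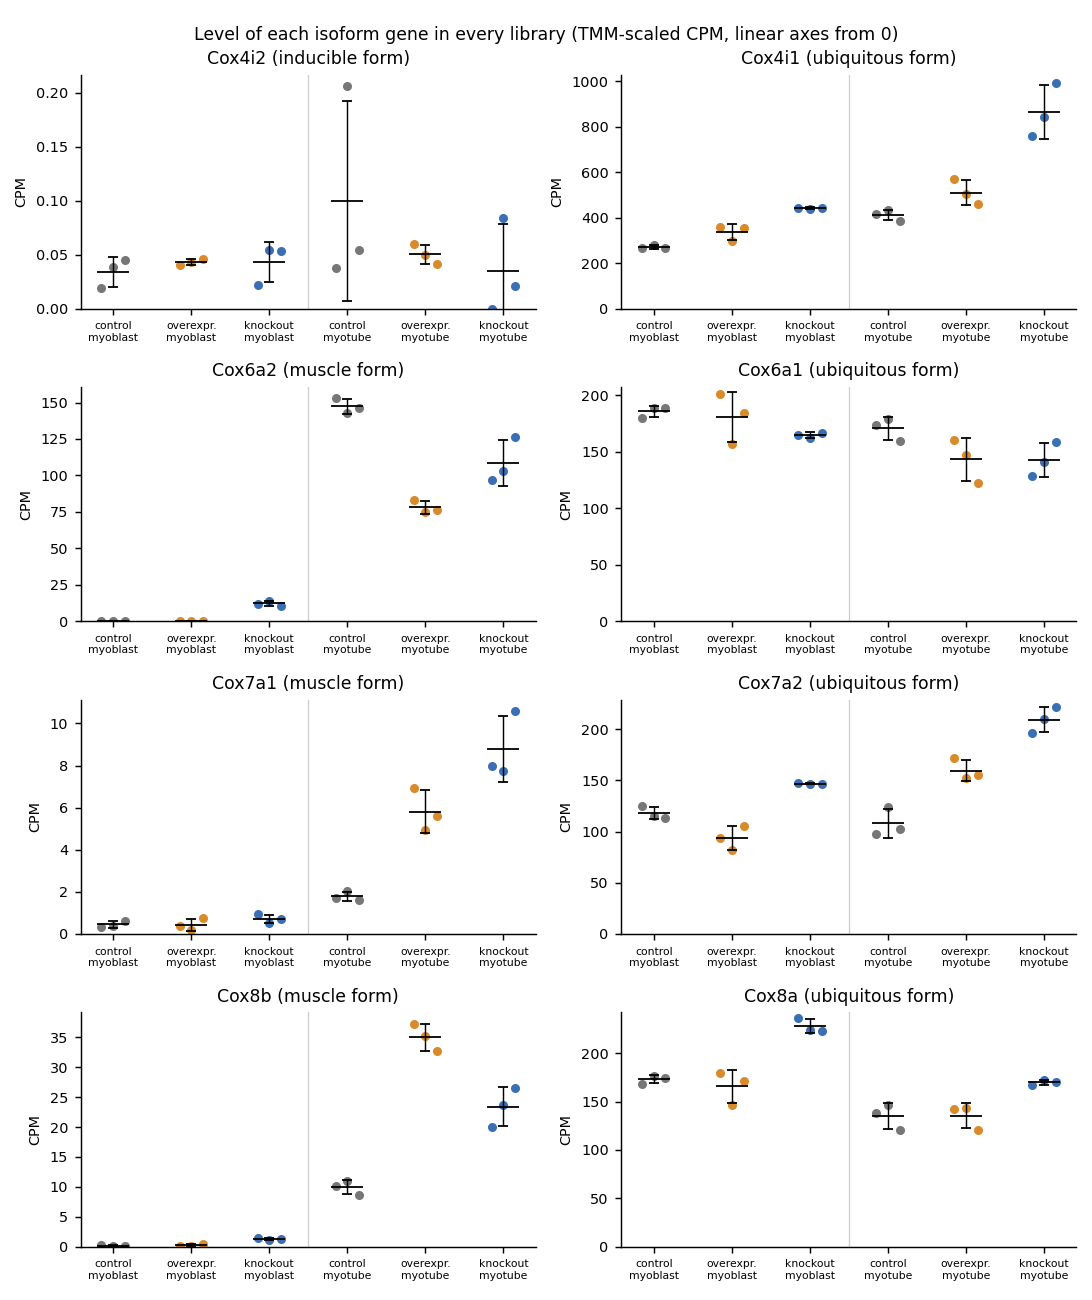
Level of each of the 8 genes in CPM (TMM-scaled, y axis, linear and from 0) in 3 libraries per group (x axis); points are libraries, the black bar is the mean and the whiskers 1 SD. Cox6a2 is highest in control myotubes (143 to 153 CPM) whereas Cox7a1 and Cox8b are lowest there among the myotube groups.

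In the overexpressor line 29.8% of all genes were called higher and 33.0% lower with differentiation, and 5 members were higher and 2 lower. Cox6a2 rose from 2 to 13 counts per library to 83.4, 75.2 and 76.1 CPM (log2 change 8.999 ± 0.27, adjusted p = 7.75e-14). Cox8b rose from 3 to 17 counts to 37.2, 35.3 and 32.7 CPM (7.59 ± 0.33, adjusted p = 2.91e-12). Cox7a1 rose from 0.36, 0.17 and 0.74 CPM to 6.92, 4.93 and 5.58 CPM (3.79 ± 0.32, adjusted p = 7.43e-09). All the muscle forms were induced in this clone too, with no overlap between stages. Cox7a2, which was not called in the control line, rose from 93.9 to 160 CPM (0.77 ± 0.09, adjusted p = 8.81e-07), and Cox4i1 rose by 0.60 ± 0.09 (adjusted p = 2.02e-05). Cox6a1 and Cox8a fell by 0.34 and 0.29 on the log2 scale (adjusted p = 0.00645 and 0.00552). With overexpressor myotube replicate C left out, these changes were -0.19 and -0.17 and missed the threshold (adjusted p = 0.101 and 0.0942).

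In the line labelled knockout 29.8% of genes were called higher and 35.6% lower, and 5 members were higher and 1 lower. Cox6a2 rose from 11.9, 14.0 and 10.8 CPM to 96.6, 103 and 126 CPM (3.15 ± 0.17, adjusted p = 2.01e-10). Cox8b rose from 1.42, 1.07 and 1.21 CPM to 20.01, 23.7 and 26.5 CPM (4.25 ± 0.25, adjusted p = 3.86e-10). Cox7a1 rose from 0.93, 0.53 and 0.71 CPM to 7.99, 7.75 and 10.6 CPM (3.61 ± 0.29, adjusted p = 8.04e-09). The stages did not overlap for any of these genes, and the rise of Cox6a2 began from a level already far above that of the other myoblasts. Cox4i1 rose from 441 to 865 CPM (0.97 ± 0.10, adjusted p = 8.4e-08), and Cox7a2 rose by 0.51 ± 0.09 (adjusted p = 0.000107; 0.34 with library totals) while Cox8a changed by -0.42 ± 0.08 (adjusted p = 0.000243). Cox6a1 did not pass (-0.20 ± 0.10, adjusted p = 0.0772) but was called lower in 4 of 24 alternatives, among them library totals (-0.38, adjusted p = 0.00174) and without knockout myotube replicate C (-0.29, adjusted p = 0.027).

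Ratios within a library do not depend on how libraries are scaled, and they were used to compare each muscle form with its partner. The log2 ratio of counts (0.5 added to each) of Cox6a2 to Cox6a1 went from -9.65 ± 0.72 in control myoblasts to -0.21 ± 0.10 in control myotubes (SD, n = 3). For Cox8b over Cox8a it went from -10.78 ± 1.38 to -3.77 ± 0.02, and for Cox7a1 over Cox7a2 from -8.06 ± 0.52 to -5.92 ± 0.06. Averaged over the 3 lines, differentiation raised the ratio by 7.46 for the Cox6a pair, by 6.61 for the Cox8 pair and by 2.81 for the Cox7a pair. Each reached the smallest p that the exact two-sided permutation of stage within line allows, 0.00025, with an adjusted p of 0.00133 over 16 ratio tests, and the stages were apart in every line. Between lines, with line permuted within stage and the stages averaged, 2 of 12 tests passed: knockout over control for the Cox8 pair (2.08, apart in both stages) and knockout over overexpressor for the Cox6a pair (3.57, apart in both stages), each at the smallest exact permutation p of 0.005 (adjusted p = 0.016). For the Cox6a pair, the knockout was above the control in myoblasts and below it in myotubes, which an average over stages does not show (2.85, exact permutation, adjusted p = 0.14). In myotubes these groups nearly touched, with the lowest control library at -0.326 and the highest knockout library at -0.329. The stages were not tested separately for this pair. The Cox8 pair also changed sign for knockout over overexpressor (average 0.83, exact permutation, adjusted p = 0.303). Knockout and overexpressor there stood at -7.53 and -10.11 in myoblasts and -2.87 and -1.95 in myotubes, apart in both stages. The passing 3.57 of the Cox6a pair was mostly a myoblast difference, -3.76 against -10.44 at 2 to 13 overexpressor Cox6a2 counts. In myotubes that pair stood at -0.40 against -0.86. For the passing 2.08 of the Cox8 pair, knockout and control stood at -7.53 and -10.78 in myoblasts and -2.87 and -3.77 in myotubes. With differentiation the Cox4i2 to Cox4i1 ratio changed by -0.62 (exact permutation, adjusted p = 0.246), which at 0 to 9 counts says little.

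**Figure D2:**
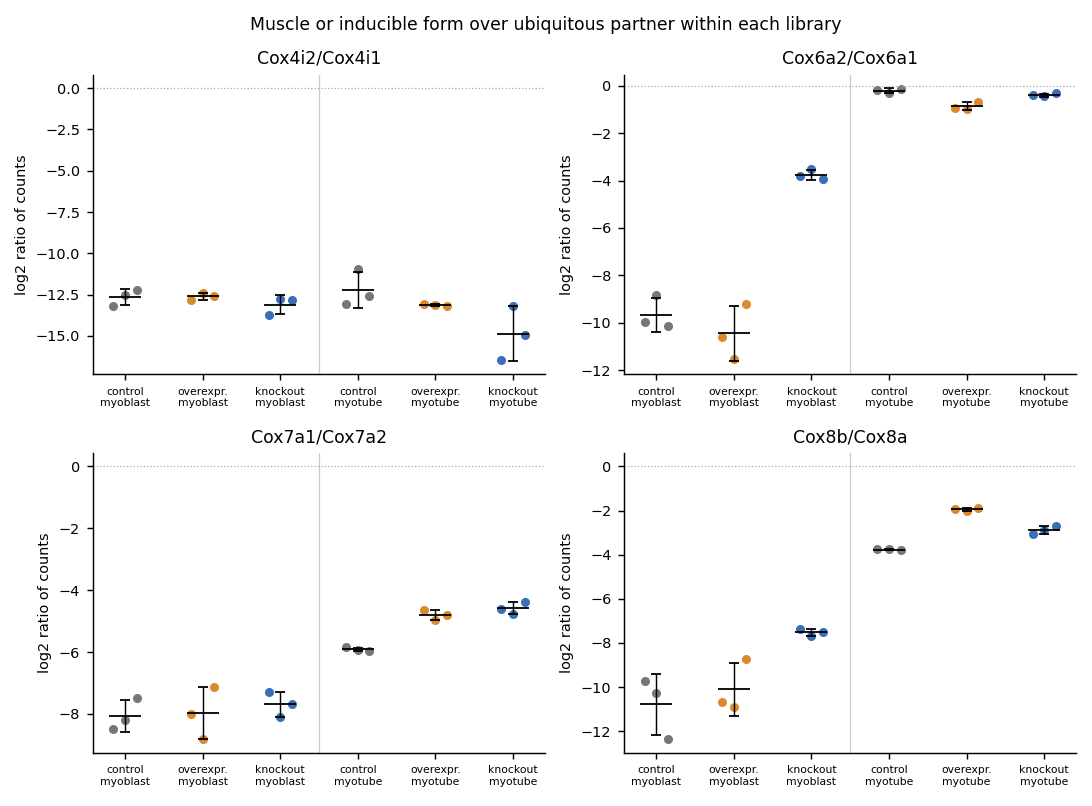
Log2 ratio of muscle or inducible form to ubiquitous partner (y axis, counts with 0.5 added) in 3 libraries per group (x axis); points are libraries, bars the mean and whiskers 1 SD. In myotubes the Cox6a2 ratio is highest in the control (-0.21) while the Cox7a1 and Cox8b ratios are lowest there (-5.92 and -3.77).

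On a scale that allows genes to be compared, CPM per kilobase of merged exon, the muscle form supplied 47.2% ± 1.8 of Cox6a transcripts in control myotubes, 11.2% ± 0.16 of Cox8 transcripts and 2.83% ± 0.11 of Cox7a transcripts (SD, n = 3). In control myoblasts these shares were 0.134%, 0.115% and 0.673%. In overexpressor myotubes the muscle share was 36.2% ± 2.6 for Cox6a, 30.8% ± 1.0 for Cox8 and 6.004% ± 0.62 for Cox7a. In knockout myotubes it was 43.9% ± 1.1, 19.1% ± 2.0 and 6.86% ± 0.85. So the order of the muscle forms by share was Cox6a2, Cox8b, Cox7a1 in the myotubes of every line, but the gaps between them differed: the Cox6a2 share was lower and the other shares higher in either clone than in the control. For the Cox6a2 share, knockout libraries (42.96% to 45.11%) came close to control libraries (45.16% to 48.66%). The shares were not tested. Coding length in place of exon length gave 6.73% for Cox8b and 1.51% for Cox7a1 in control myotubes, so the size of a share depends on the length used.

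**Figure D3:**
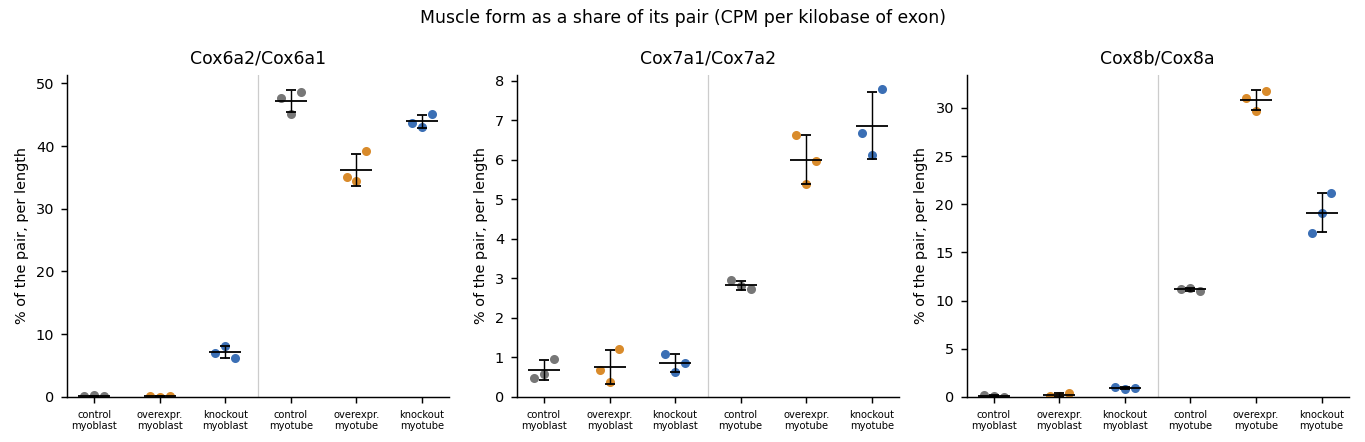
Muscle form as a percentage of its pair, from CPM per kilobase of merged exon (y axis, from 0), in 3 libraries per group (x axis); points are libraries, bars the mean and whiskers 1 SD. The Cox6a2 share is highest in control myotubes (47.2%), the Cox8b share in overexpressor myotubes (30.8%) and the Cox7a1 share in knockout myotubes (6.86%).

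The sum of each pair gives the level of a subunit's transcripts whichever gene they come from. Unlike the ratios within a library, these sums depend on how libraries are scaled. They are given with TMM only and were not recomputed with another scaling. The Cox6a pair summed to 265 ± 7.3 CPM per kilobase in control myoblasts and 460 ± 15 in control myotubes, a ratio of 1.74 with no overlap between libraries. In the overexpressor line the same ratio was 1.24, with overlapping libraries, and in the knockout line 1.44. The Cox7a pair, nearly all Cox7a2, overlapped between stages in the control line (126 ± 6.1 and 118 ± 15 CPM per kilobase), while in myotubes it was 1.80 times the myoblast sum in the overexpressor and 1.52 times in the knockout line, without overlap. The Cox8 pair stood at 280 ± 6.5 in control myoblasts and 246 ± 25 in control myotubes, a ratio of 0.879 without overlap. With library totals, the control log2 change of Cox7a2 was -0.37 in place of -0.13, and that of Cox8a -0.60 in place of -0.36. The control overlap of the Cox7a sums and the size of the Cox8 ratio therefore apply to TMM scaling only. In the overexpressor line the Cox8 sum was 1.18 times the myoblast value, with overlapping libraries, and in the knockout line 0.913 times, without overlap. Against control myotubes, the Cox6a sum was 0.693 in overexpressor and 0.789 in knockout myotubes, and the sums of the Cox7a, Cox8 and Cox4 pairs were 1.24 to 2.10 times the control value, all without overlap.

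In myotubes, the clones were then compared with the control on the genes themselves. Cox6a2 was lower in either clone, while Cox7a1 and Cox8b were higher, so the 3 muscle forms did not move as a block. Both comparisons use the same control libraries. In the overexpressor myotubes 26.2% of all genes were called higher and 30.9% lower, with 4 members higher and 2 lower. In the knockout myotubes the shares were 31.0% and 37.0%, with 5 members higher and 2 lower.

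Cox6a2 in overexpressor myotubes (75.2 to 83.4 CPM) was 1.89-fold below the control (143 to 153 CPM), a log2 change of -0.92 ± 0.16 with an adjusted p of 9.03e-05. In knockout myotubes (96.6 to 126 CPM) the change was -0.44 ± 0.15 (adjusted p = 0.0186). No clone library reached the lowest control library. The knockout difference did not pass with DESeq2 size factors (-0.31, adjusted p = 0.0886), nor without control myotube replicate A, knockout myotube replicate A or knockout myotube replicate B (adjusted p = 0.059, 0.0694 and 0.0697). Such scaling shifted the median of all genes in this contrast from -0.07 to 0.06, and Cox6a2 stayed below that median under each scaling tried.

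Cox8b was 3.54-fold higher in overexpressor myotubes (log2 change 1.82 ± 0.21, adjusted p = 1.2e-06) and 2.36-fold higher in knockout myotubes (1.24 ± 0.21, adjusted p = 6.3e-05). Cox7a1 was 3.27-fold higher in overexpressor (1.71 ± 0.26, adjusted p = 2.2e-05) and 4.93-fold higher in knockout myotubes (2.30 ± 0.27, adjusted p = 5.55e-07). These calls held under all 24 alternatives, as did the lower Cox6a2 of the overexpressor. Without overexpressor myotube replicate C the overexpressor changes were -0.79 for Cox6a2, 1.97 for Cox8b and 1.84 for Cox7a1. Library totals in place of TMM moved the median of all genes in that contrast from -0.04 to 0.11, and Cox6a2 was then at -0.77. Of the 8 myotube markers, 6 passed as higher in overexpressor myotubes and 8 in knockout myotubes, with the sums given above, and their part in these differences was not tested; Cox6a2 went the other way from them. Proliferation markers were higher as well: 6 of 6 passed in overexpressor myotubes (median log2 change 1.00; summed 146 to 204 CPM) and 4 of 6 in knockout myotubes (median 0.61; 150 to 200 CPM), against 80.3 to 108 CPM in control myotubes, and their part was not tested either.

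The muscle forms were also compared with each other inside each library, which needs no scaling. The log2 ratio of Cox8b to Cox6a2 counts was -3.90 ± 0.18 in myotubes of the control, -1.16 ± 0.06 in those of the overexpressor and -2.21 ± 0.08 in those of the knockout. Per length of merged exon, Cox6a2 was 6.94 to 8.95 times as abundant as Cox8b in control myotube libraries but 1.13 to 1.23 times in the overexpressor and 2.30 to 2.55 times in the knockout. The size of these multiples depends on the length used, and no other length was tried for them. For Cox7a1 to Cox6a2 the log2 ratio of counts was -6.37 ± 0.21, -3.76 ± 0.17 and -3.63 ± 0.08 in the same order. Either clone was apart from the control in both ratios, with the smallest p that 3 against 3 allows (exact permutation, two-sided, p = 0.1). The ratio of Cox8b to Cox7a1 overlapped between control and overexpressor myotubes (2.47 ± 0.10 and 2.60 ± 0.21, exact permutation p = 0.5) and was 1.42 ± 0.17, below both, in knockout myotubes.

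Among the ubiquitous forms in myotubes, Cox4i1, the largest of the nuclear-encoded subunits, had 387 to 434 CPM in the control, 459 to 568 in the overexpressor and 758 to 992 in the knockout. The log2 changes were 0.31 ± 0.09 (adjusted p = 0.00921) and 1.07 ± 0.10 (adjusted p = 1.73e-08). The overexpressor change was 0.23 without overexpressor myotube replicate A, where it missed the threshold (adjusted p = 0.0583), and 0.48 without replicate C (adjusted p = 0.000356). Cox7a2 rose by 0.56 ± 0.09 and 0.95 ± 0.09 (adjusted p = 4.24e-05 and 5.9e-08). Cox8a did not pass in the overexpressor (0.00 ± 0.08, adjusted p = 0.988) and was higher in the knockout (0.33 ± 0.08, adjusted p = 0.00206). Cox6a1 was called lower in either clone, by 0.25 and 0.26 on the log2 scale (SE 0.10, adjusted p = 0.035 and 0.0274), but lost each call in 8 of 24 alternatives, and without overexpressor myotube replicate C they were -0.05 and -0.18 (adjusted p = 0.7 and 0.069). The Cox6a genes were thus the only pair in which neither gene was higher in the clones' myotubes.

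**Figure D4:**
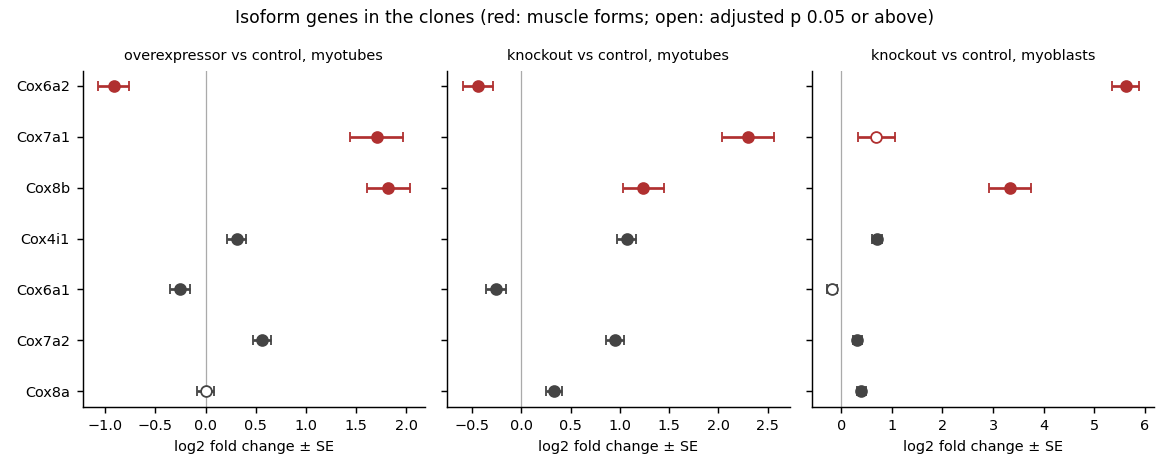
Log2 fold change of the 7 tested genes against the control line (x axis, points with SE whiskers from the edgeR fit of 18 libraries) in overexpressor myotubes, knockout myotubes and knockout myoblasts; each panel has its own x range. In both myotube panels Cox6a2 lies left of 0 (-0.92 and -0.44) and Cox7a1 and Cox8b right of it, while in knockout myoblasts Cox6a2 lies at 5.62.

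Knockout and overexpressor myotubes also differed from each other (29.1% of genes higher and 30.6% lower in the knockout, 5 members higher and 1 lower). Cox4i1 (0.76 ± 0.09, adjusted p = 2.74e-06), Cox7a2 (0.39 ± 0.09, adjusted p = 0.00151) and Cox8a (0.33 ± 0.08, adjusted p = 0.00274) were higher in the knockout. So was Cox6a2 (0.47 ± 0.15, adjusted p = 0.0153, but 0.0851 without knockout myotube replicate C), while Cox8b was lower (-0.58 ± 0.20, adjusted p = 0.0207, but 0.0751 without knockout myotube replicate A and 0.0532 without B). Cox7a1 (0.59 ± 0.24, adjusted p = 0.0425) lost its call in 11 of 24 alternatives, among them that without overexpressor myotube replicate C (0.54, adjusted p = 0.0839). The rank of the lines thus differed by gene: control, knockout, overexpressor for Cox6a2, and overexpressor, knockout, control for Cox8b.

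In myoblasts, the overexpressor was close to the control for these genes. Of all genes 20.7% were called higher and 19.7% lower, and of the members Cox4i1 was higher (0.31 ± 0.09, adjusted p = 0.0127; 0.0625 without overexpressor myoblast replicate A and 0.055 without C) and Cox7a2 lower (-0.33 ± 0.09, adjusted p = 0.00803). The muscle forms had at most 32 counts in any library of either group and none passed the test, although Cox6a2 was called lower without overexpressor myoblast replicate C (-1.54, adjusted p = 0.041).

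Knockout myoblasts stood apart. Against control myoblasts 26.4% of genes were higher and 26.6% lower, with 5 members higher and 0 lower. Cox6a2 had 553 to 767 counts per library against 7 to 21 in the control, a log2 change of 5.62 ± 0.26 (adjusted p = 2.86e-11). Cox8b had 59 to 68 counts against 1 to 10 (3.34 ± 0.41, adjusted p = 3.34e-06). Cox7a1 had 29 to 43 counts against 18 to 28, and its change of 0.69 ± 0.36 did not pass (adjusted p = 0.12). Cox4i1 (0.71 ± 0.09, adjusted p = 4.81e-06), Cox8a (0.40 ± 0.08, adjusted p = 0.000551) and Cox7a2 (0.32 ± 0.09, adjusted p = 0.0077) were higher as well, so Cox6a1 and Cox7a1 were the tested members without a call. With only these groups fitted, Cox6a1 was called lower (-0.19, adjusted p = 0.000252). All 8 myotube markers were called higher in the same comparison, and their part in them was not tested. Against overexpressor myoblasts 26.9% of genes were higher and 25.7% lower in the knockout, with the 5 members named as higher against the control higher again, Cox6a2 by 6.32 ± 0.29 and Cox8b by 2.76 ± 0.39 (adjusted p = 1.74e-11 and 1.38e-05). Cox7a1 did not pass there (0.77 ± 0.37, adjusted p = 0.0902) but did with DESeq2's Wald test (adjusted p = 0.0429) and without overexpressor myoblast replicate C (1.40, adjusted p = 0.00466).

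The muscle forms of knockout myoblasts were nevertheless well below those of control myotubes. In a comparison added after the values were seen, 28.5% of genes were higher and 32.6% lower in knockout myoblasts than in control myotubes, with 2 members higher and 3 lower. Cox6a2 was at 8.28% of its mean control myotube level (log2 change -3.59 ± 0.17, adjusted p = 2.33e-11), Cox8b at 12.5% (-3.01 ± 0.25, adjusted p = 1.51e-08) and Cox7a1 at 40.5% (-1.31 ± 0.31, adjusted p = 0.00122). Of the myotube markers in the same libraries, the lowest was Mylpf at 56.7% and the highest Ckm, muscle creatine kinase, at 128%. Each of the 3 muscle forms was thus at a lower percentage of its control myotube level than each of the 8 markers. Of the ubiquitous forms, Cox4i1 was at 107% (not called, but higher by 0.32 with library totals, adjusted p = 0.00391, and by 0.16 with only these groups fitted, adjusted p = 0.0148), Cox6a1 at 96.3%, Cox7a2 at 136% and Cox8a at 169%.

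The difference between lines in the response to differentiation was tested as an interaction. For overexpressor minus control 16.6% of genes were called with a larger and 22.3% with a smaller response, and of the members Cox7a1 (1.79 ± 0.48, adjusted p = 0.0061) and Cox7a2 (0.89 ± 0.13, adjusted p = 2.48e-05) had the larger response. The response of Cox6a2 differed by -0.22 ± 0.58 (adjusted p = 0.815) and that of Cox8b by 1.24 ± 0.67 (adjusted p = 0.162), both limited by the few counts in myoblasts. The Cox8b difference passed with DESeq2's Wald test (1.34, adjusted p = 0.0202), without overexpressor myoblast replicate C (2.34, adjusted p = 0.00508) and without control myoblast replicate C (1.67, adjusted p = 0.0434). For knockout minus control 20.2% were larger and 29.9% smaller, and 3 members were larger and 2 smaller. Cox6a2 (-6.06 ± 0.31, adjusted p = 2.5e-10) and Cox8b (-2.10 ± 0.49, adjusted p = 0.00211) had the smaller fold response, from a higher start. Cox7a1 (1.61 ± 0.45, adjusted p = 0.00709), Cox7a2 (0.64 ± 0.13, adjusted p = 0.000609) and Cox4i1 (0.36 ± 0.13, adjusted p = 0.0318, lost in 7 of 24 alternatives) had the larger.

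The other nuclear genes of the complex were taken from a list of 11, with 9 tested. In overexpressor myotubes 7 were higher and 0 lower than in the control, led by Cox7b at 0.68 ± 0.11 apart from the low Cox7b2, and the list's median change was 0.34 against -0.04 over all genes. In knockout myotubes 7 were higher and 0 lower, with a median of 0.61 against -0.07, among them Ndufa4, now counted as a complex IV subunit, at 0.82 ± 0.08 (adjusted p = 7.02e-08). In knockout myoblasts 7 were higher and 0 lower (median 0.51). Cox6a2 and Cox6a1 thus lay below 0 in myotubes of the clones where the median of the other subunits lay above it. Of 24 assembly factors, with 23 tested, 14 were higher and 3 lower in overexpressor myotubes, 13 and 0 in knockout myotubes, and 14 and 0 in knockout myoblasts. Their median changes were 0.27, 0.30 and 0.46, beside -0.04, -0.07 and 0.02 over all genes, of which 26.2%, 31.0% and 26.4% were called higher and 30.9%, 37.0% and 26.6% lower. Coa3, an early factor in building the Cox1 subunit into the complex, was higher by 0.85 ± 0.09 and 0.87 ± 0.09 in the clones' myotubes, and Sco1, a copper chaperone, was lower by 0.56 on the log2 scale (SE 0.09) in the overexpressor's.

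Cox7b2, a form of the 7b subunit known from testis, showed the largest difference of the list. It had 0 to 4 counts per library in control myoblasts and 2 to 7 in control myotubes, 2 to 5 and 11 to 34 in the overexpressor, and 520 to 599 and 377 to 640 in the knockout. It was therefore mainly a transcript of the knockout clone in both stages, at 10.9 ± 0.36 and 9.14 ± 1.59 CPM. At its few counts in overexpressor myotubes it was also called higher than in control myotubes (1.56 ± 0.48, edgeR adjusted p = 0.00928). The same held against overexpressor myoblasts (1.78 ± 0.50, edgeR adjusted p = 0.00504).

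**Figure D5:**
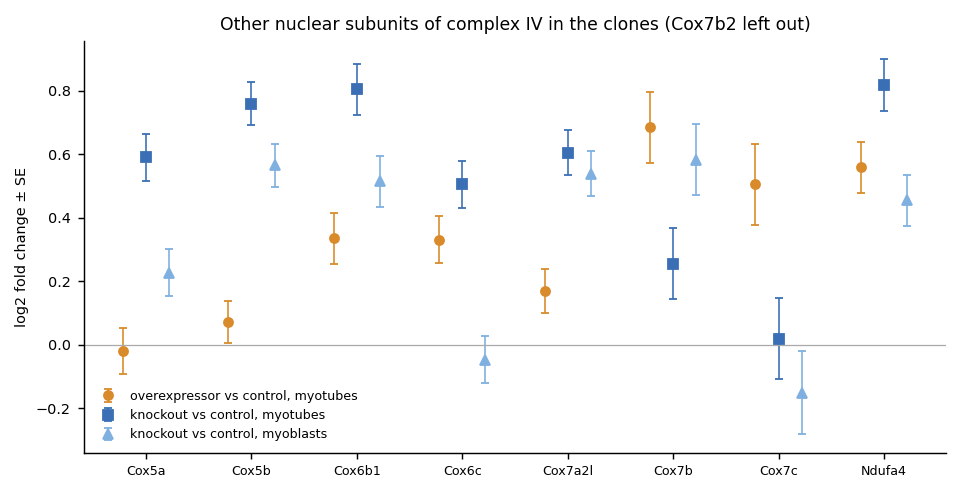
Log2 fold change with SE (y axis) of 8 of the other complex IV genes (x axis) against the control line in overexpressor myotubes, knockout myotubes and knockout myoblasts; Cox7b2, far above the scale, is left out. The points for Ndufa4 are above 0 in all 3 comparisons (0.56, 0.82 and 0.46), those for Cox5a only in the knockout ones.

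Regulators set beside the members did not share 1 pattern with them. Of 10 regulators tested, 3 were higher, 3 lower and 4 not called in overexpressor myotubes. In knockout myotubes 3 were higher, 4 lower and 3 not called. Over all genes 26.2% and 31.0% were called higher and 30.9% and 37.0% lower in these comparisons. Only some of the 10 are named here. Ppargc1a, the coactivator PGC-1alpha that drives mitochondrial gene expression in muscle, was at 0.30 and 1.34 CPM in control myoblasts and myotubes, 0.31 and 0.70 in the overexpressor, and 7.08 and 7.79 in the knockout. Esrra, a nuclear receptor that works with it, was higher in overexpressor and knockout myotubes (0.42 and 1.19, adjusted p = 0.00126 and 7.56e-09). Hif1a, the oxygen-sensitive factor under which Cox4i2 is known to be induced, was lower in them (-1.35 and -2.57, adjusted p = 0.000166 and 3.01e-07). Cox4i2 was at 0 to 9 counts in every line and stage, the control included, and a link to Hif1a was not tested. In overexpressor and knockout myotubes Slc25a4, the heart and muscle form of the ADP/ATP carrier, was higher by 0.35 and 0.77 (adjusted p = 5.72e-05 and 2.9e-09). Ckmt2, the sarcomeric mitochondrial creatine kinase, was higher by 1.87 and 4.09 (adjusted p = 0.00042 and 4.36e-08). Of these muscle mitochondrial genes, then, Cox7a1, Cox8b, Slc25a4 and Ckmt2 were above the control in the clones' myotubes and Cox6a2 below it. Of the 4 genes in these other isoform pairs 3 were tested. The remaining one, a ubiquitous partner, was not called in overexpressor myotubes (-0.13) but was higher in knockout myotubes (0.27).

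The genes whose log2 CPM followed each muscle form most closely over the 18 libraries were found among 10830 genes that reached 5 CPM in some group. Genes named as predicted genes, clones or pseudogenes, and those of mitochondrial DNA, were left out before ranking. The libraries share stage and clone, so these are descriptions. For Cox6a2 they were Tnnc1, slow and cardiac troponin C, Adora1, the adenosine A1 receptor, and Ankrd10 (r = 0.991, 0.991 and 0.990). For Cox8b they included Gprc5c and Myh4, the fast IIb myosin (0.988 and 0.987). For Cox7a1 they were Rassf7, Bod1 and Pink1, a kinase of mitochondrial quality control (0.982, 0.977 and 0.973). Cox8b followed Cox6a2 with r = 0.948 and Cox7a1 with r = 0.925, and Cox7a1 followed Cox6a2 with r = 0.833. In myotubes of control, overexpressor and knockout, Tnnc1 had 2270 ± 129, 2578 ± 165 and 3472 ± 495 CPM, Adora1 had 16.2 ± 2.3, 10.8 ± 3.6 and 14.99 ± 1.6, and Ankrd10 had 179.9 ± 3.9, 164 ± 27 and 165 ± 10.1. Gprc5c had 132 ± 14, 306 ± 21 and 225 ± 24 CPM and Myh4 had 107 ± 18, 590 ± 77 and 665 ± 55. Rassf7 had 30.3 ± 0.19, 59.5 ± 4.4 and 72.9 ± 9.6 CPM. Bod1 had 73.4 ± 2.5, 106 ± 8.5 and 115 ± 8.5, and Pink1 had 115 ± 8.7, 173 ± 20 and 212 ± 22. Adora1, Ankrd10, Gprc5c, Rassf7, Bod1 and Pink1 thus had the same order of line means in myotubes as the gene they followed. Among these genes with the same order, only Gprc5c had all lines apart by more than 1 SD on each side. For Rassf7, Bod1 and Pink1 the control was apart from either clone, but the clones overlapped within 1 SD. Adora1 overlapped within 1 SD between every pair of lines, and Ankrd10 between the overexpressor and either other line, so their order is not resolved. Tnnc1, with all lines also apart by more than 1 SD on each side, had its lowest mean in the control, where Cox6a2 had its highest. Myh4 had its highest mean in the knockout, where Cox8b lay between the other lines.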

How the data were processed

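PolyA RNA of 18 C2C12 libraries was aligned and counted by the authors with STAR 2.7.9a and featureCounts (Subread 2.0.3) on mm10, per the submitters' processing notes; whether strand was used is not given in the sources used here. The deposited values used here are raw counts per gene, whole numbers without normalization; a table of transformed values was not used. Of 55450 identifiers, 55104 matched a symbol, and those without held 0.0332% of counts. One edgeR 4.0.16 quasi-likelihood fit (R 4.3.3; TMM, filterByExpr, robust, 6 groups, 12 residual degrees of freedom) covered 17912 genes; 11 contrasts were planned and 1 added, with Benjamini-Hochberg adjustment over all genes and a threshold of 0.05. Ratios within pairs used counts plus 0.5, with exact two-sided permutation of stage within line (smallest p 0.00025) or of line within stage (smallest p 0.005), adjusted over 16 tests. Code was tested on simulated data. CPM is TMM-scaled, and levels between genes are per kilobase of merged exon (GENCODE M21). Promoters come from RefSeq, and motifs were searched on both strands.

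Named genes were the 8 members, list genes with the highest and lowest called changes (2 each) per contrast, a few regulators and other isoform pairs, and the 3 most alike genes per muscle form (1 of those for Cox8b is not reported here); Mylpf and Ckm, as the lowest and highest markers, were picked after their values were seen. Members and lists were chosen with earlier results of these data known. Alternatives were DESeq2 1.42.0 (Wald test, and its size factors), library totals, no filter, only the groups compared, a replicate block, and leaving out each library. Replicate letters were not used as pairs.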

Additional observations from a re-analysis of the deposited data

Results flagged for a closer look

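The response to differentiation differed between lines, by an interaction term in the edgeR quasi-likelihood fit, for 18 values of members and named list genes, each a difference of log2 changes (clone minus control) with its adjusted p. The list genes were named for their called changes in these contrasts, so the 18 is not a rate. Over all genes, 16.6% had a larger and 22.3% a smaller response in the overexpressor. In the knockout these shares were 20.2% and 29.9%. In the overexpressor the response was larger for Cox7a1 (1.79, adjusted p = 0.0061), Cox7a2 (0.89, adjusted p = 2.48e-05), Cox6c (0.72, adjusted p = 2.42e-05), Cox7c (0.73, adjusted p = 0.00359), Cox11 (0.50, adjusted p = 0.000714) and Cox14 (0.42, adjusted p = 0.0118), and smaller for Sco1 (-0.38, adjusted p = 0.0219). In the knockout it was larger for Cox4i1 (0.36, adjusted p = 0.0318), Cox7a1 (1.61, adjusted p = 0.00709), Cox7a2 (0.64, adjusted p = 0.000609), Cox5a (0.36, adjusted p = 0.00787), Cox6c (0.55, adjusted p = 0.00029), Coa3 (0.54, adjusted p = 0.00211) and Cmc2 (0.90, adjusted p = 2.65e-05). In the knockout it was smaller for Cox6a2 (-6.06, adjusted p = 2.5e-10), Cox8b (-2.10, adjusted p = 0.00211), Sco1 (-1.21, adjusted p = 3.31e-07) and Lrpprc (-0.93, adjusted p = 3.06e-05). Groups of 3 are too small for a test of single outlying libraries.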

How the results depend on the processing

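Of 288 recomputed counts of members called, 287 stayed within 1.5 times the reported value, and the count for overexpressor against control myoblasts fell from 2 to 1 without overexpressor myoblast replicate A; leaving out 1 library in turn gave 1 to 2 there. Of 232 recomputed log2 ratios, 221 kept direction and side of the threshold and 11 passed it only under the alternative. With 2 in place of 0.5 added to the counts, knockout minus control passed for the Cox4 pair (-1.28) and the Cox7a pair (0.82), as did knockout minus overexpressor for the Cox4 pair (-0.77); the cause was not tested. Leaving out 1 library in turn, ratios that passed in some cases ran from -1.97 to -1.15 (Cox4, knockout minus control), -1.53 to -0.71 (Cox4, knockout minus overexpressor), 0.74 to 0.99 (Cox7a, knockout minus control), 0.39 to 0.81 (Cox7a, overexpressor minus control) and -1.03 to -0.45 (Cox6a, overexpressor minus control).

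Of 2014 recomputed member changes, 1900 kept direction and side of the threshold, 53 lost a call, 17 gained one and 44 changed sign. Sign changes concerned member changes that were not called, and 1 list gene, Cox5b in knockout myoblasts against control myotubes (0.0089 with library totals). For the overexpressor response, Cox4i1 was at 0.11 with DESeq2 or its size factors, 0.030 with no filter and 0.19 with library totals. For the knockout response, Cox6a1 was at 0.073 with DESeq2 or its size factors and 0.014 with only the groups compared, and Cox8a at 0.085 with DESeq2 or its size factors, 0.0042 with library totals and 0.027 with only the groups compared. Cox6a1 was at 0.014 with DESeq2 or its size factors in knockout against overexpressor myotubes, and in knockout myoblasts against control myotubes at 0.0065 with only these groups and 0.16 with library totals. Leaving out 1 library in turn moved changes across 0 in these ranges. In overexpressor against control myoblasts they were -0.12 to 0.053 for Cox6a1, -0.71 to 0.29 for Cox7a1, -0.13 to 0.019 for Cox8a and -0.51 to 1.10 for Cox8b, and in myotubes -0.074 to 0.18 for Cox8a. In the overexpressor response they were -0.085 to 0.18 for Cox4i1, -0.31 to 0.0024 for Cox6a1, -0.80 to 0.63 for Cox6a2 and -0.016 to 0.26 for Cox8a. In the knockout response they were -0.17 to 0.0061 for Cox6a1 and -0.15 to 0.019 for Cox8a. For Cox6a1 they were -0.13 to 0.080 in knockout against overexpressor myotubes and -0.10 to 0.0021 in knockout myoblasts against control myotubes.

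The replicate block gave 2 members called in overexpressor against control myoblasts, as without it, and changed no member call; same-letter deviations correlated between -0.36 and 0.26, so the letters were not taken as pairs. The planned coding length from a protein table was not run, and the coding length of the annotation was added after seeing the data. Of 48 muscle shares recomputed with the longest transcript or this coding length, 28 moved by at least the SD of their group. Few counts limit Cox7a1 in myoblasts (8 to 43 per library) and control myotubes (89 to 90). They also limit Cox8b in myoblasts (1 to 68) and Cox6a2 in control and overexpressor myoblasts (2 to 21).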
